A study of Mus musculus with 31 samples.

Results

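The genes described here are 9 that pancreatic beta cells use to read glucose and to fill and mature their secretory granules: Slc2a2, G6pc2, Kcnj11, Abcc8, Slc30a8, Pcsk1, Pcsk2, Chga and Chgb. They were chosen by gene symbol from the 38283 genes listed in both deposited tables, and all 9 were found in each. The pancreas of C57BL/6 pups was taken on postnatal day 2 and its cells were profiled by RNA-seq, to ask how a loss or a gain of Igf2 in the mesenchyme alters the organ. Sorting separated YFP-positive mesenchymal from YFP-negative non-mesenchymal cells, and beta cells belong to the second fraction together with acinar, ductal and other cells.

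In the Igf2 deletion model, mutants were Igf2+/fl; Nkx3.2Cre/+ and controls Igf2+/+; Nkx3.2Cre/+. In the H19DMD deletion model, mutants were H19DMDfl/+; Nkx3.2+/Cre and controls H19DMD+/+; Nkx3.2+/Cre. H19DMD is the imprinting control region of H19 and Igf2, and the series describes this model as overexpression of Igf2. All groups, controls included, carried the Nkx3.2-driven Cre, which the series describes as acting in the mesenchyme, so the non-mesenchymal cells studied here are not the cells named as the site of deletion. The Igf2 model had 4 control and 3 mutant libraries, all non-mesenchymal, and the H19DMD model had 3 control and 4 mutant libraries for each fraction. Mesenchymal cells of the Igf2 model were not analysed here. Libraries are named below by their number within a group, and the labels do not say that they came from separate animals, so p-values measure only the spread between these samples.

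Beta cells take up glucose through a facilitative transporter and metabolise it, and the resulting rise in ATP closes ATP-sensitive potassium (KATP) channels, which depolarises the cell and triggers calcium-dependent exocytosis of insulin. Insulin is made as a prohormone, cut by the prohormone convertases inside dense-core granules and stored there as crystals with zinc. Granins are acidic proteins that help to form these granules. Several of the 9 genes, above all the granins and convertases, are also used by other islet cells, by neurons and by chromaffin cells, so a level in a mixed fraction does not belong to beta cells alone.

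Expression is given as FPKM, a level scaled to transcript length and to the mapped fragments of the library. The tables hold no read counts and library depth is unknown, which leaves counting error without an estimate. A library of the Igf2 table had 19199 to 20918 genes above 0, and one of the H19DMD model had 17476 to 19352. The targeted locus was read in the mesenchyme of the H19DMD model: Igf2 was at 3648 to 4024 FPKM in controls and 6162 to 7923 in mutants, and H19 was 2437 to 2454 in controls and 565 to 835 in mutants, so the libraries followed their genotype labels there. In non-mesenchymal cells the 8 mesenchymal markers (Col1a1, Dcn, Pdgfra and others) summed to between 33.1 and 187 FPKM, against 4822 to 6270 in the mesenchymal fraction. The islet hormones that define the endocrine cells were abundant in non-mesenchymal cells, with Ins2 at 2137 to 10819 FPKM over the 14 libraries. Mafa, a transcription factor of mature beta cells, was listed at 0 in all non-mesenchymal Igf2 mutants and H19DMD controls.

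Promoter sequences were available for 6 of the 9 genes, from RefSeq's table for GRCm38.p6, which gives 250 bases before and 50 after each listed start. Kcnj11, Abcc8 and Slc30a8 had no entry. The windows of 3 granule genes are shown because they share the core of the cAMP response element, TGACG, through which CREB-family factors are known to act, and that of G6pc2 because this gene varied most among the mutant libraries. All are on the plus strand, 5′ to 3′. Capitals mark TGACG, with the full palindrome TGACGTCA where it is complete, in the first 3, and the E-box CANNTG, the class of site used by helix-loop-helix factors such as NeuroD1, in the last. The Chga stretch is chr12:102554691-102554940, the Chgb stretch is chr2:132781559-132781588, the Pcsk1 stretch is chr13:75089607-75089825 and the G6pc2 stretch is chr2:69219699-69219948.
Chga: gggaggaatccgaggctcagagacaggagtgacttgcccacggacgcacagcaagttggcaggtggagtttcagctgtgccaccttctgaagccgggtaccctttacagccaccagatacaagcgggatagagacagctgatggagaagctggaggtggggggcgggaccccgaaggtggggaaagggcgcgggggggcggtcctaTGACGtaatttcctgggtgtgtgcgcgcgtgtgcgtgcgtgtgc
Chgb: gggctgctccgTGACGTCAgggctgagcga
Pcsk1: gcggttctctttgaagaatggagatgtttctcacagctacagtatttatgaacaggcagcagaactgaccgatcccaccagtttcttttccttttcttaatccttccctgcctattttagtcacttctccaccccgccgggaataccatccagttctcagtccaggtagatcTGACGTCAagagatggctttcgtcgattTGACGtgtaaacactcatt
G6pc2: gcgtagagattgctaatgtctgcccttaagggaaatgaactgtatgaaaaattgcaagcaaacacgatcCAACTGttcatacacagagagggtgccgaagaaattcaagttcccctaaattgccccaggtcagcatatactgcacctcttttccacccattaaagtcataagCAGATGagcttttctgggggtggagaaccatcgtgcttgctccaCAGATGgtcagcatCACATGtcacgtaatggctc

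The full element TGACGTCA began 72 bases before the listed start of Chgb and 78 bases before that of Pcsk1, and it occurs on either strand in 1.79% of the 32851 promoter windows of the same length. The core TGACG, a search added after the sequences had been seen, began 44 bases before the start of Chga and lay a second time 50 bases before that of Pcsk1. It is common, being present in 20.8% of all windows, and every TGACGTCA contains it. On the other strand it also lay 34 bases before the start of Pcsk2 and after the first listed start of G6pc2. The printed G6pc2 stretch precedes the second of 2 starts that RefSeq lists, which lies inside the annotated gene, and holds 4 E-boxes, the nearest 20 bases before that start. E-boxes are present in 72.3% of all windows. The Chgb element lies inside the gene as GENCODE annotates it, and only 30 bases of that window are shown. The TATA box TATAAA, in 13.6% of windows, occurred in the Chga window alone among these genes. It was not upstream of the listed start but began at base 6 from it. The GENCODE start of Chga lies further downstream, at 102554969. The homeodomain core TAATTA, in 5.29% of windows, occurred in none. These are matches of letters, and binding was not measured.

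By length-scaled level in non-mesenchymal cells, Chgb, Chga and Pcsk2 were the 3 highest of the 9 genes and Kcnj11 the lowest in each of the 4 groups, while the genes between them changed places. In Igf2 controls the mean was 252 ± 28.4 FPKM for Chgb, 104 ± 24.0 for Chga and 48.1 ± 7.80 for Pcsk2 (SD, n = 4). Each of these lay above the next gene without overlap of libraries. Abcc8, Slc30a8, Slc2a2, Pcsk1 and G6pc2 followed between 26.8 and 11.6 FPKM, and no neighbours among these 5 were separated beyond their spread. Kcnj11 was lowest, at 5.76 ± 1.83 FPKM. In H19DMD controls Chgb, Chga and Pcsk2 again led with 253 ± 31.8, 74.4 ± 10.9 and 61.0 ± 1.24 FPKM (SD, n = 3), and Kcnj11 was again lowest with 4.36 ± 1.85. Slc30a8 at 52.5 ± 6.86 and G6pc2 at 43.6 ± 10.3 stood higher there and overlapped each other, while G6pc2 lay above Slc2a2 without overlap.

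**Figure D1:**
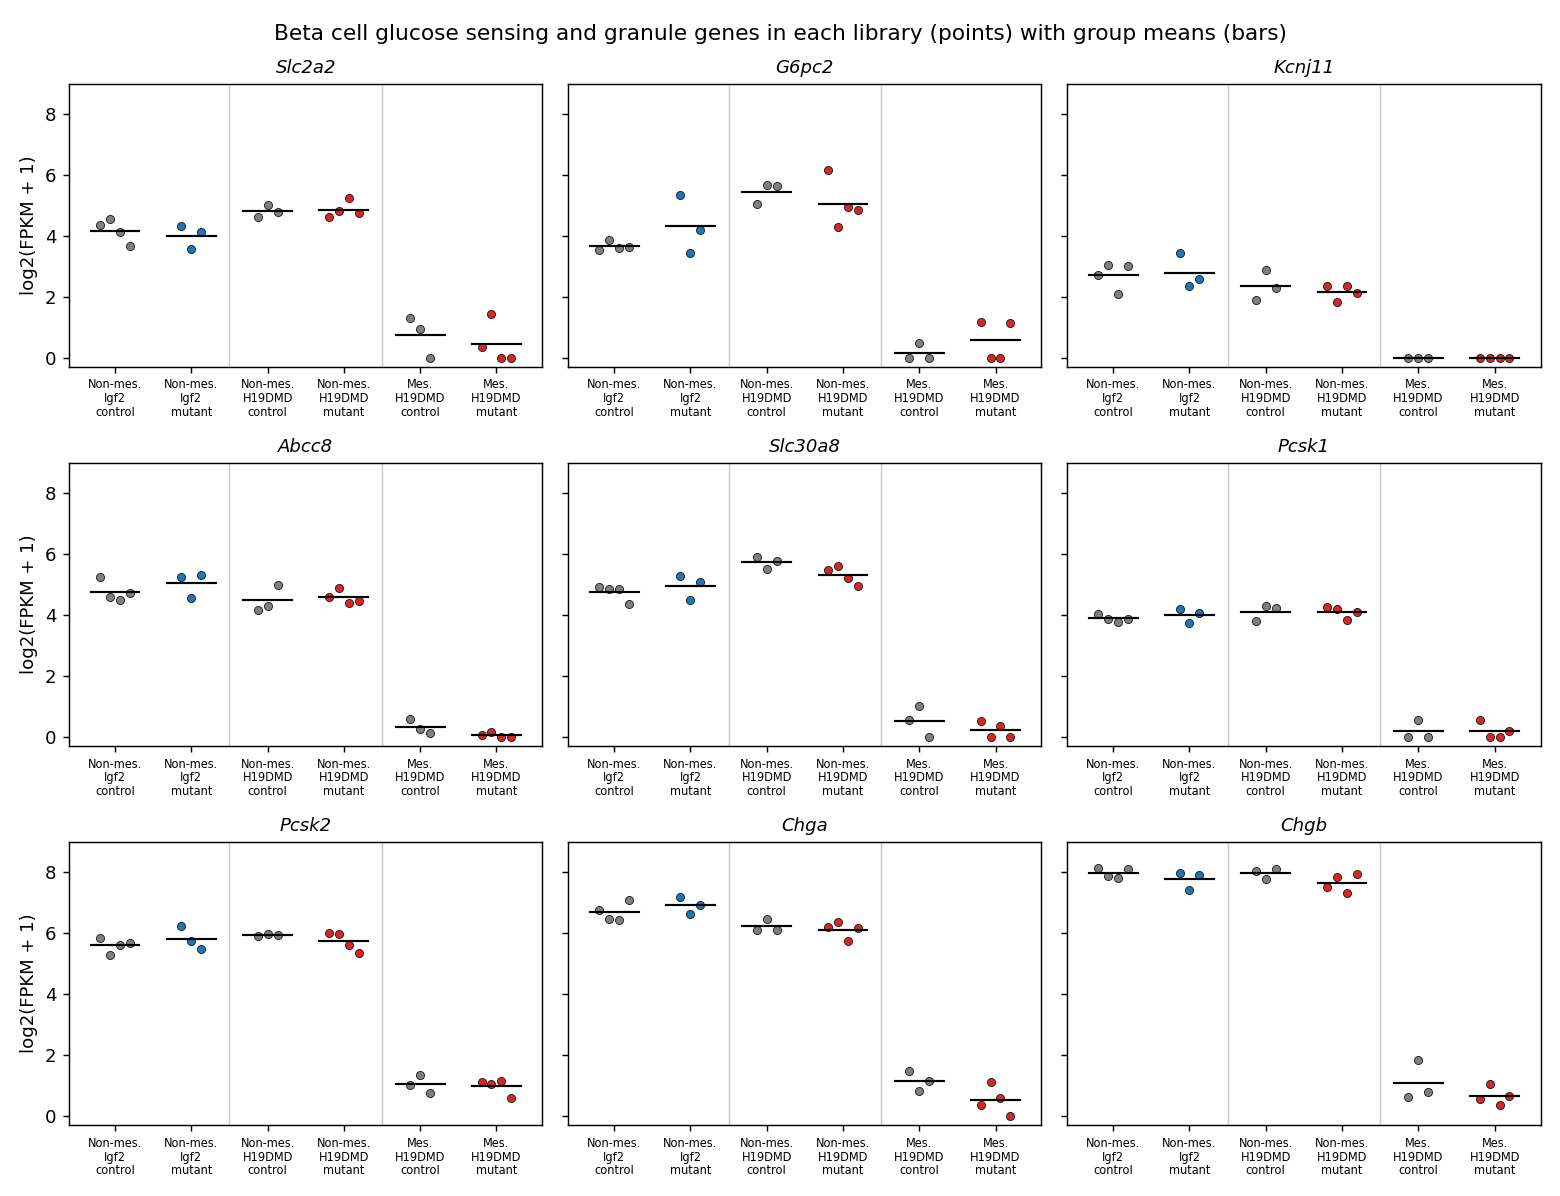
Level of each gene as log2(FPKM + 1), with one point per library and a bar at the group mean, in 4 non-mesenchymal (Non-mes.) groups and 2 mesenchymal (Mes.) groups; grey marks controls, blue Igf2 mutants and red H19DMD mutants. In each panel the mutant points lie within or across the range of their own controls, and the mesenchymal points lie near 0, with Kcnj11 at 0 in all 7.

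No change of the 9 genes was called in non-mesenchymal cells of Igf2 mutants. By limma on log2(FPKM + 1), 0 of 9 passed an adjusted p of 0.05, where 0.0631% of the 17441 genes tested were called, and 0 of 9 passed an unadjusted p of 0.05, which 5.28% of all genes did. No gene had mutant and control libraries that failed to overlap, against 6.02% of all genes. The fitted differences, mutant minus control, were above 0 for 7 genes and below 0 for Slc2a2 and Chgb, with a median of 0.20 on the log2 scale beside −0.03 over all genes. With libraries left out in turn the median ran from 0.012, without mutant 1, to 0.30, without mutant 2.

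In the H19DMD model 0 of 9 genes passed the adjusted threshold in non-mesenchymal cells, where 0.0677% of 16239 genes were called. None passed an unadjusted p of 0.05, which 5.35% of all genes did, and none had groups without overlap, against 5.68%. The differences lay below 0 for 7 genes and above 0 for Slc2a2 and Abcc8. Their median was −0.20, beside 0.05 over all genes. Leaving out control library 2 alone brought that median to 0.01.

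**Figure D2:**
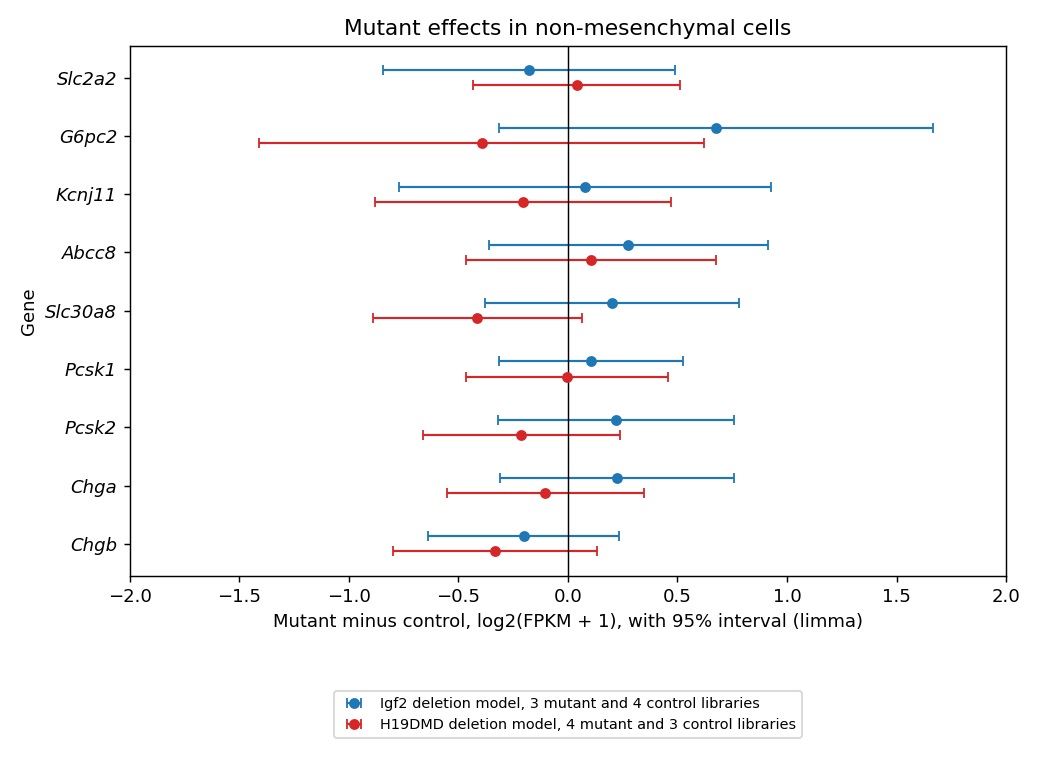
Mutant minus control difference in log2(FPKM + 1) for each gene in non-mesenchymal cells, with its 95% interval from limma; blue is the Igf2 model and red the H19DMD model. Every interval includes 0, and those of G6pc2 are the widest in both models.

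Slc2a2 encodes GLUT2, the glucose transporter of rodent beta cells, which liver and other epithelia also use. It lies on chromosome 3 at 28697903-28731359, plus strand (GENCODE M21, GRCm38, as for all genes below). Its level was 19.3, 22.6, 16.4 and 11.7 FPKM in Igf2 controls 1 to 4 and 18.9, 10.8 and 16.3 in mutants 1 to 3. In H19DMD controls it was 23.5, 31.7 and 26.6 FPKM and in mutants 23.3, 27.2, 36.8 and 25.6. The groups overlapped in both models, and the limma differences were −0.18 ± 0.28 and 0.04 ± 0.20 (SE). An antisense gene, 1700112D23Rik, overlaps Slc2a2, and the table's Slc2a2 locus runs on to base 28781108. Use of strand is not stated, so a share of these reads could belong to the antisense gene.

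G6pc2 encodes the islet glucose-6-phosphatase catalytic subunit, which removes phosphate from glucose-6-phosphate and so opposes glycolysis. It lies on chromosome 2 at 69211073-69227841, plus strand. Igf2 controls were close together at 10.6, 13.5, 11.04 and 11.4 FPKM, while mutants were at 39.9, 9.91 and 17.2. The mutants thus ran from below every control to far above the highest one, with a coefficient of variation of 70.0% against 11.2% in the controls. The difference of 0.68 ± 0.42 (SE) had an adjusted p of 0.919 in limma and a two-sided exact permutation p of 0.229, where 0.0286 is the smallest p that 4 against 3 libraries allow. Without mutant library 1 the difference was 0.16, and without mutant library 2 it was 1.12, with adjusted p-values of 0.982 and 0.851. H19DMD controls were at 31.8, 50.1 and 49.1 FPKM and mutants at 70.1, 18.5, 29.8 and 27.8. Here too mutant library 1 was above every control and the other 3 mutants were below the lowest control, for a difference of −0.39 ± 0.43 (SE), with an adjusted p of 0.904 in limma. With 1 library left out in turn, it ran from −0.76 without mutant 1 (adjusted p 0.707) to −0.14 without mutant 2, and was −0.60 without control 1. The high G6pc2 library of each model was also the one with the most insulin and glucagon RNA among its mutants: Ins2 was 7288 FPKM and Gcg 4386 in Igf2 mutant 1, and 6991 and 6112 in H19DMD mutant 1. In bulk RNA, fewer cells of a type and less RNA per cell cannot be told apart.

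Kcnj11 and Abcc8 encode the pore subunit Kir6.2 and the sulfonylurea receptor SUR1 of the islet KATP channel, and both are known as genes of neonatal diabetes and of congenital hyperinsulinism. They are neighbours on the minus strand of chromosome 7, at 46093953-46100764 and 46104523-46180033. Kcnj11 was 5.58, 7.19, 3.24 and 7.02 FPKM in Igf2 controls and 9.81, 4.08 and 4.99 in mutants. It was 2.76, 6.39 and 3.94 FPKM in H19DMD controls and 4.13, 2.56, 4.06 and 3.36 in mutants. The spread among controls alone, 2.22-fold and 2.32-fold from lowest to highest, covered most of the mutant values, and the differences were 0.08 ± 0.36 and −0.20 ± 0.29 (SE). The table's locus for Kcnj11 spans only 1173 bases of the annotated gene, so its length-scaled level rests on a shorter model than the annotation gives.

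Abcc8 was 36.7, 23.3, 21.5 and 25.5 FPKM in Igf2 controls and 37.4, 22.3 and 38.8 in mutants. H19DMD controls were at 16.7, 18.8 and 30.5 FPKM and mutants at 22.97, 28.7, 20.2 and 20.8. The groups overlapped, and the differences were 0.28 ± 0.27 and 0.10 ± 0.24 (SE). Although the channel is built from equal numbers of both subunits, the Abcc8 level exceeded that of Kcnj11 in all 14 non-mesenchymal libraries, by 2.94-fold to 11.2-fold. The median ratio was 5.10 in Igf2 controls and 5.48 in mutants, and 6.07 in H19DMD controls and 5.88 in mutants. Abcc8 overlaps the gene models Gm45487 and Gm45486, the second antisense, so its value carries the same reservation about strand.

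Slc30a8 encodes ZnT8, which loads zinc into insulin granules, and lies on chromosome 15 at 52295553-52335798, plus strand. It was 29.4, 28.1, 28.1 and 19.7 FPKM in Igf2 controls and 38.2, 21.5 and 32.9 in mutants, a difference of 0.20 ± 0.25 (SE). H19DMD controls were at 58.5, 45.0 and 54.2 FPKM and mutants at 43.9, 48.2, 36.1 and 30.1. Here 3 of 4 mutants lay below the lowest control and mutant 2 lay between controls. The difference was −0.41 ± 0.20 (SE) with a 95% interval from −0.89 to 0.06. Its adjusted p was 0.894 in limma and its exact permutation p 0.114.

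Pcsk1 and Pcsk2 encode the prohormone convertases PC1/3 and PC2, which cut proinsulin, and PC2 also makes glucagon in alpha cells. Pcsk1 lies on chromosome 13 at 75089826-75134861 and Pcsk2 on chromosome 2 at 143546156-143816285, both on the plus strand. Pcsk1 had the smallest spread in both groups of the Igf2 table, at 15.5, 13.6, 12.7 and 13.7 FPKM in controls and 17.2, 12.2 and 15.9 in mutants. Its level was 12.8, 18.8 and 17.6 FPKM in H19DMD controls and 18.4, 17.4, 13.2 and 16.2 in mutants, and the fitted difference was 0.00 ± 0.20 (SE), with a 95% interval from −0.47 to 0.46. Controls and mutants overlapped in both models.

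Pcsk2 was 56.6, 37.7, 48.0 and 49.9 FPKM in Igf2 controls and 74.3, 52.9 and 43.5 in mutants. H19DMD controls were nearly equal at 59.7, 62.2 and 60.9 FPKM, with a coefficient of variation of 2.03%, while mutants were at 63.0, 62.0, 48.2 and 40.2. Mutants 3 and 4 thus lay below all controls and mutants 1 and 2 lay at control level, for a difference of −0.21 ± 0.19 (SE), with an adjusted p of 0.897 in limma. Those libraries, mutants 3 and 4, also had the lowest Gcg of that group, 2577 and 2669 FPKM, against 6112 and 4289 in mutants 1 and 2. Their Ins2 was the lowest of the group as well, 4387 and 3738 FPKM, against 6991 and 5056 in mutants 1 and 2. The level of Pcsk2 exceeded that of Pcsk1 in all 14 libraries, by 2.48-fold to 4.66-fold. Antisense genes Pcsk2os1 and Pcsk2os2 overlap Pcsk2.

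Chga and Chgb encode chromogranins A and B, granins of dense-core granules. Chga lies on chromosome 12 at 102554969-102565028 and Chgb on chromosome 2 at 132781278-132795079, both on the plus strand. Chga was 109, 87.2, 85.0 and 137 FPKM in Igf2 controls and 146, 97.7 and 120.0 in mutants, and the limma difference was 0.22 ± 0.23 (SE). Chga was 67.7, 86.9 and 68.6 FPKM in H19DMD controls and 72.6, 80.9, 52.9 and 71.9 in mutants, a difference of −0.10 ± 0.19 (SE). Mutants and controls were interleaved in both models.

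Chgb was 279, 235, 222 and 274 FPKM in Igf2 controls and 251.1, 172 and 241 in mutants. H19DMD controls were at 266, 217 and 277 FPKM and mutants at 182, 227, 159 and 243. It was the gene with a fitted difference below −0.2 in both models, at −0.20 ± 0.185 and −0.33 ± 0.20 (SE), and the exact permutation p was 0.314 and 0.171. The ratio of Chgb to Chga was 2.00 to 2.69 in Igf2 controls and 1.72 to 2.01 in mutants, so that only the lowest control and the highest mutant overlapped. In H19DMD controls the ratio was 2.498 to 4.04 and in mutants 2.504 to 3.39, with all mutants inside the control range.

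Markers of other cell types were measured in the same libraries, and none was called. In the Igf2 model the 14 acinar markers (digestive enzymes such as Cpa1 and the factors Ptf1a and Rbpjl) summed to 34147 to 49826 FPKM in controls and 97955 to 115047 in mutants. Of these markers 13 of 14 were higher in mutants, 11 of them without overlap, against 6.02% of all genes. In H19DMD mutants 12 of 13 tested acinar markers had differences below 0, with overlapping sums of 48057 to 122633 FPKM in controls and 55800 to 79581 in mutants. The 5 erythroid markers found in the table summed to 113 to 368 FPKM in non-mesenchymal H19DMD controls and 140.5 to 1497 in mutants. The ranges overlapped, and all 5 fitted differences were above 0. In the Igf2 model all 5 were below 0, with sums of 626 to 3319 FPKM in controls and 497 to 1490.4 in mutants. Leukocyte markers had 6 of 6 differences above 0 in Igf2 mutants, with sums of 364 to 558 FPKM in controls and 556 to 998 in mutants. Ductal markers had 7 of 7 above 0 in H19DMD mutants, with sums of 883 to 1400 FPKM in controls and 993 to 1671 in mutants. Hepatocyte markers, which bear on Slc2a2, summed to 11.8 to 165 FPKM in Igf2 controls and 6.43 to 10.03 in mutants, and to 6.40 to 16.3 in H19DMD controls and 14.8 to 18.02 in mutants. The part of these cells in the differences above was not tested. Neuronal, chromaffin and glial markers, which bear on the granins, summed to 25.5 to 127 FPKM over the non-mesenchymal groups, overlapped between mutants and controls in both models, and included the chromaffin marker Dbh at 0 in all H19DMD controls.

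The endocrine cells themselves were gauged by their hormones and transcription factors. The 6 beta cell markers summed to 3922 to 9590 FPKM in Igf2 controls and 4662 to 12896 in mutants. The sum was 12069 to 18236 FPKM in H19DMD controls and 6403 to 12181 in mutants. All 5 tested beta cell markers had fitted differences below 0 in H19DMD mutants, 3 of them without overlap, and so had all 4 alpha cell markers, 1 without overlap, against 5.68% of all genes. None of these markers was called. Both delta cell markers had fitted differences above 0, and their sum, 840 to 1910 FPKM in controls and 1363 to 1569 in mutants, overlapped. Of single hormones, Ins2 was 6416, 10095 and 10819 FPKM in H19DMD controls and 6991, 5056, 4387 and 3738 in mutants, with an adjusted p of 0.892 in limma. Ins1 was 5231 to 7424 FPKM in controls and 2331 to 4732 in mutants, without overlap. The 9 genes overlapped between the same libraries. When each library was scaled to the mean of 5 pan-islet transcription factors (Isl1, Neurod1, Pax6, Rfx6 and Nkx2-2), the median difference of the 9 genes was 0.16 in the Igf2 model and −0.15 in the H19DMD model, and none was called.

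Of the wider secretory machinery, none of the genes on 5 related lists passed the adjusted threshold in a mutant comparison. Among 12 other genes of glucose sensing and secretion control, 11 were tested in non-mesenchymal cells of each model, 7 and 4 of them higher. Kcnk16, an islet two-pore potassium channel, was 18.6 to 23.1 FPKM in Igf2 controls and 33.9 to 36.8 in mutants without overlap, at an adjusted p of 0.638 in limma. In the same comparison 1 other gene of this list was lower without overlap, and 6.02% of all genes had groups without overlap. Kcnk16 was 19.6 to 33.6 FPKM in H19DMD controls and 17.8 to 41.2 in mutants. Among 18 other granule and exocytosis genes, 17 were tested in non-mesenchymal cells, 11 of them higher in Igf2 mutants and 4 higher in H19DMD mutants. In mesenchymal cells 12 were tested and all 12 had fitted differences below 0 in H19DMD mutants, with a median of −0.47 beside −0.07 over all genes, and none was called. In the same libraries 7 of 8 islet hormones had differences below 0, with a median of −0.45. The 3 beta cell markers tested there, Iapp, Ins1 and Ins2, are among these hormones and add no further genes. The part of the hormone differences in the result was not tested. Scg2, a further granin, was 46.4 to 70.0 FPKM in Igf2 controls and 47.0 to 74.2 in mutants, and 74.4 to 82.2 in H19DMD controls and 57.1 to 88.3 in mutants.

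The 2 control groups of non-mesenchymal cells share age, strain and Cre, yet some of the 9 genes stood apart between the tables. G6pc2 was 10.6 to 13.5 FPKM in Igf2 controls and 31.8 to 50.1 in H19DMD controls. Slc30a8 was 19.7 to 29.4 against 45.0 to 58.5 and Slc2a2 11.7 to 22.6 against 23.5 to 31.7, all without overlap. Pcsk2 did not overlap either, at 37.7 to 56.6 and 59.7 to 62.2 FPKM. These 4 of 9 genes stand beside 18.6% of 17034 genes whose control groups did not overlap between the tables, and 1.43% that were higher in H19DMD controls without overlap. Chgb, at 222 to 279 and 217 to 277 FPKM, was at the same level in both. Chga overlapped, at 85.0 to 137 and 67.7 to 86.9. Of the hormones, Ins2 was 2137 to 6217 FPKM in Igf2 controls against 6416 to 10819 in H19DMD controls, and Gcg was 536 to 2157 and 6206 to 8888, while Sst was 953 to 1893 and 810 to 1874 and overlapped. The tables were normalised separately and no test was made across them, and the model and whatever else differed between the tables cannot be told apart.

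In mesenchymal cells the 9 genes were close to the floor of the measurement. The highest value of any of them in any of the 7 mesenchymal libraries was 2.57 FPKM, for Chgb in control 2. Kcnj11 was listed at 0 in all 7, and only Pcsk2 and Chgb were above 0 in all 7. Limma, taken between fractions, gave differences in the controls from −6.90 ± 0.35 (SE) for Chgb to −2.37 ± 0.34 for Kcnj11, and in the mutants from −7.00 ± 0.21 to −2.16 ± 0.24 for the same genes. Each of the 9 was called lower in mesenchymal cells in both, where 10.3% of all genes tested were called lower in controls and 15.1% in mutants. In mesenchymal controls Pcsk2, Chga and Chgb averaged just above 1 FPKM, the minimum for this test. The other 6 genes entered it through their level in non-mesenchymal cells. In mesenchymal mutants all 9 averaged below 1 FPKM, the highest being Pcsk2 at 0.992, and all entered in that way. The calls in both thus mostly restate where these genes are expressed.

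The mesenchymal level, as a share of the non-mesenchymal one, was 0 to 2.91% over the 9 genes in controls, with a median of 0.956%, and 0 to 1.86% in mutants, with a median of 0.709%. The 8 islet hormones had shares of 0.462 to 0.933% and 0.251 to 0.665%, and the 14 acinar markers medians of 1.47% and 2.00%. The median share of the hormones was 0.657% in controls and 0.499% in mutants, below that of the acinar markers in both. The source of islet and acinar RNA in the mesenchymal libraries was not tested. The highest shares were those of Slc2a2 in controls, from values of 1.46, 0.917 and 0 FPKM, and of Pcsk2 in mutants, from values of 1.18, 1.06, 1.24 and 0.494.

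In the mesenchymal cells themselves limma tested the H19DMD deletion for Pcsk2 alone, since the other 8 genes had means under 1 FPKM there. Its level was 1.03, 1.54 and 0.701 FPKM in controls, against the mutant values above, for a difference of −0.07 ± 0.35 (SE). It was not called, where 0.0694% of 15856 genes were. Exact permutation tests of the other genes, unadjusted over the 9, gave their lowest p of 0.0571 for Abcc8, at 0.485, 0.205 and 0.0863 FPKM in controls and 0.0511, 0.105, 0 and 0 in mutants. Chga followed with an exact p of 0.114, at 1.80, 0.785 and 1.24 FPKM in controls and 0.281, 1.17, 0.521 and 0 in mutants. The groups overlapped for both, and values this close to 0 can be failed estimates. Whether the deletion acted differently in the fractions could hardly be read from these genes. Of the interaction terms, 0 of 9 passed the adjusted threshold, where 0.0117% of 17105 genes did, and 0 of 9 passed an unadjusted p of 0.05, where 6.35% did. They ran from −0.54 ± 0.37 (SE) for Chga to 0.82 ± 0.61 for G6pc2. With mesenchymal levels this low, the term combines the non-mesenchymal difference with values near the floor, and for Kcnj11, at 0 in all mesenchymal libraries, it is the non-mesenchymal difference with its sign turned. Whether the effects differed or were alike is not shown by it. The fraction, mutant and interaction comparisons of the H19DMD model share libraries and are not independent of each other.

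Relatives of these genes that are known from other tissues were also measured. The KATP channel of vascular smooth muscle and pericytes is built from Kcnj8 (Kir6.1) and Abcc9 (SUR2), neighbours on the minus strand of chromosome 6 at 142564837-142571614 and 142587862-142702315. Kcnj8 was 28.1, 29.1 and 48.7 FPKM in mesenchymal controls and 46.1, 41.1, 24.4 and 23.5 in mutants, but at most 3.29 in any non-mesenchymal library. Abcc9 was 50.8, 47.3 and 50.7 FPKM in mesenchymal controls and 81.3, 77.4, 61.0 and 44.6 in mutants, but at most 1.84 in non-mesenchymal cells. The fitted differences, mesenchymal minus non-mesenchymal, were 4.86 ± 0.32 and 5.14 ± 0.18 on the log2 scale in controls (SE). Both genes entered this fit through the mesenchymal libraries alone and were picked after their values were seen, so these values are a description of where each pair of subunits was found.

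**Figure D3:**
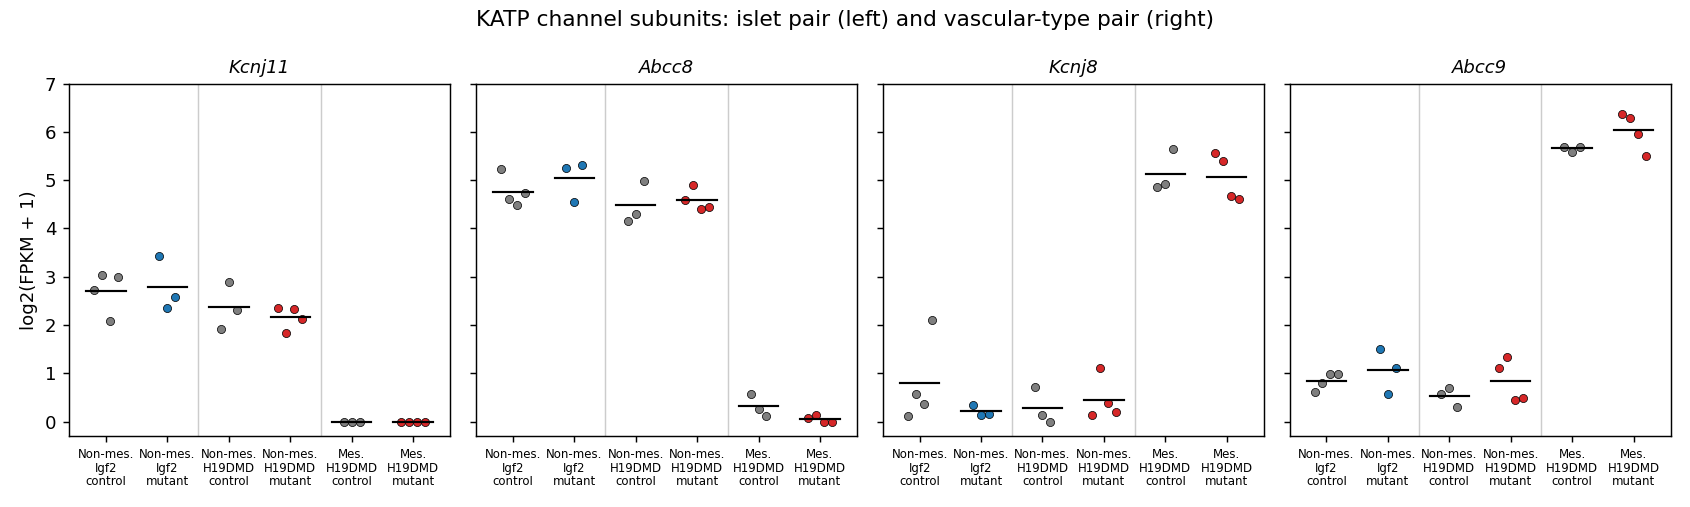
Levels of the 4 KATP channel subunits as log2(FPKM + 1) in each library, with bars at group means; grey marks controls, blue Igf2 mutants and red H19DMD mutants. Kcnj11 and Abcc8 are higher in non-mesenchymal (Non-mes.) than in mesenchymal (Mes.) cells, and Kcnj8 and Abcc9 show the reverse. The non-mesenchymal level of Kcnj11 is itself low, down to 2.56 FPKM in H19DMD mutant 2.

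Other relatives were less divided. G6pc3, the widely expressed glucose-6-phosphatase, was 21.4 to 33.9 FPKM in non-mesenchymal and 9.69 to 18.3 in mesenchymal H19DMD controls, and was called lower in the mesenchymal fraction. Slc2a1, the general glucose transporter GLUT1, was 10.2 to 17.0 and 9.46 to 13.05 FPKM in the same groups, and Furin, the general convertase, was 8.03 to 11.5 and 6.68 to 8.80. Neither passed the adjusted threshold. Hk2, a high-affinity hexokinase of many tissues, was called higher in the mesenchyme of controls, at 18.5 to 24.7 against 8.63 to 9.69 FPKM. In mutants, at 9.88 to 81.5 against 4.13 to 15.8 FPKM, Hk2 was not called (limma adjusted p 0.147). Over all 18 tested relatives, 4 were called higher and 2 lower in mesenchymal controls, where 12.4% of all genes were called higher and 10.3% lower. Carboxypeptidase E (Cpe), which trims the ends left by the convertases, was 120.1 to 174 FPKM in non-mesenchymal and 132 to 174 in mesenchymal controls. Of 17 tested granule and exocytosis genes, 12 were called lower in mesenchymal controls and none higher, beside those same shares of all genes. Some of the 12 averaged below 1 FPKM in mesenchymal controls and entered the test through their non-mesenchymal level. Their calls mostly restate where they are expressed. Cpe, Pam, Vamp2, Stx1a and Rab3a were not called. Of these 5, Rab3a was called lower in mesenchymal mutants, by limma with an adjusted p of 0.00991. Pcsk6, a convertase of secreted growth factors picked out after its values were seen, was 11.03, 11.5 and 10.01 FPKM in mesenchymal controls and 5.81, 6.09, 5.32 and 4.70 in H19DMD mutants. Its groups did not overlap, as was true of 5.39% of all genes, and its adjusted p was 0.927 in limma.

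Within groups, the 9 genes tended to deviate together. Igf2 mutant 1 was above its group mean for 9 of 9 genes, by 0.40 on average on the log2 scale, and Igf2 mutant 2 was above it for 0 of 9, at −0.41. Igf2 mutant 2 also had the highest FPKM total of the 21 libraries, 6.24e+06, with the largest share in its top 3 genes, 82.5%. The part of this in its deviation was not tested. The other 12 libraries deviated by between −0.18 and 0.18 on average. Over the 14 non-mesenchymal libraries, with each gene centred on its group mean, 32 of 36 pairs of genes had a Pearson correlation above 0, with a median of 0.36 and a range from −0.17 (Slc2a2 and Chga) to 0.71 (Abcc8 and Pcsk1). Pcsk1 followed the mean of the other 8 most closely, with r = 0.80, and Slc2a2 least, with r = 0.33. Of the hormones Ins2 and Gcg, Pcsk2 followed Gcg more closely (r = 0.80, against 0.12 with Ins2), while Kcnj11 and G6pc2 had r = 0.72 and 0.69 with Ins2 and 0.50 and 0.37 with Gcg. These values describe 14 libraries that share their depth, amplification and cell mixture across genes, and no test was made of them. No share over all gene pairs stands beside these counts, so whether the tendency is particular to the 9 genes is not shown.

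**Figure D4:**
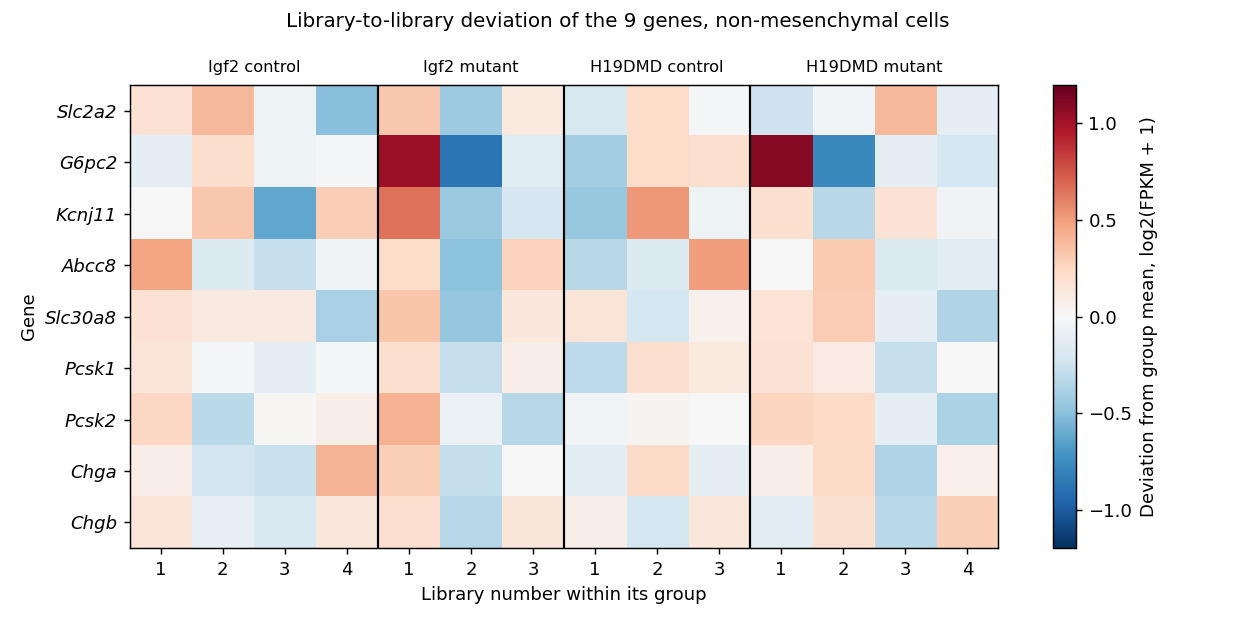
Deviation of each gene from its group mean, in log2(FPKM + 1), for the 14 non-mesenchymal libraries; red is above and blue below the group mean. Igf2 mutant 1 is above for all 9 genes and Igf2 mutant 2 below for all 9, and G6pc2 is highest in library 1 of both mutant groups.

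Among 6745 genes averaging 10 FPKM or more in the non-mesenchymal libraries of both tables, the 5 whose group-centred level followed the mean of the 9 most closely were Mamld1 (r = 0.88), Slc31a1 (r = 0.86), Tnpo1 (r = 0.86), Sipa1l3 (r = 0.85) and Pogk (r = 0.85). Slc31a1 encodes a copper transporter and Tnpo1 a nuclear import receptor, and neither is an islet marker. Likeness was measured as Pearson's r over 14 libraries.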

How the data were processed

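Per the labels' protocols, RNA from sorted cells went through whole-transcriptome amplification (Ovation RNA-seq V2) and was sequenced as single reads, so levels also carry the amplification's bias. The submitters' processing notes name TopHat2 2.0.8, Cufflinks 2.2.1 and GRCm38; annotation, strand and settings are not given in the sources used here. The authors deposited FPKM values, one table per model. Of 31 samples, 21 had values; 8 empty columns were not used, and 2 H19DMD controls were not analysed here. Whole reads could not be recovered from the steps between low values. Replicates had r of 0.850 to 0.884 across genes.

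Tests were run with limma 3.58.1 (R version 4.3.3), taking log2(FPKM + 1), a scale that understates changes of low genes. A gene entered where its libraries in a comparison averaged 1 FPKM or more, with a variance trend, only the compared groups, two-sided tests and Benjamini-Hochberg adjustment over all genes at 0.05. Single genes also had exact permutation tests. The fit was also run on simulated data. No rate of recovery is given here, so a gene that was not called is not shown to be unchanged. All 9 members were named, with up to 4 genes per related list by highest level, and the 5 most similar genes. Kcnj8, Abcc9, Pcsk6 and the uncalled granule genes fall outside that rule and were named after their values were seen. Of the list of other glucose sensing genes Kcnk16 alone was named, although Ucp2 had a higher level in H19DMD controls. Members and lists were chosen with earlier results of these data known. Alternatives covered pseudocount, filter, scaling, variance model, locus length, replicate block and left-out libraries.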

Additional observations from a re-analysis of the deposited data

Results flagged for a closer look

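Each gene was screened for a library far from the rest of its group in groups of 4, by the gap to its nearest neighbour as a share of the group's range. Among the 26 sets of values screened, 2 libraries stood out, and chance alone marks about 1 set in 20. Slc30a8 was 19.7 FPKM in Igf2 control 4 of the non-mesenchymal cells, while the nearest of the other 3 controls was at 28.1. Slc2a2 was 1.72 FPKM in H19DMD mutant 2 of the mesenchymal cells, while the nearest of the others was at 0.280.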

How the results depend on the processing

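Under every alternative run, 0 of the 9 genes were called in both non-mesenchymal mutant comparisons and the interaction, no gene tested was called in the mesenchymal one (Pcsk2 alone at the filter used), and all 9 between fractions in controls and in mutants, except that 8 were called there with a mean of at least 5 FPKM, a filter that Kcnj11 did not pass. Adjusted p-values of single genes ran from 0.707 to 1 in the mutant and interaction comparisons other than the interaction of G6pc2, whose lowest was 0.655. The median difference of the 9 genes between fractions followed the pseudocount by construction: −6.05 in controls and −6.60 in mutants at 0.1, −3.22 and −2.75 at 5. The median interaction was −0.49 at a pseudocount of 0.1. With libraries left out in turn, the median ran from −0.27 to 0.0131 for H19DMD non-mesenchymal cells, from −4.73 to −4.51 between fractions in mutants and from −0.15 to 0.20 for the interaction. Signs of single uncalled genes turned in 5 other cases, whose cause was not tested: Pcsk2 in mesenchymal cells with the replicate block (0.0657), Slc2a2 in H19DMD non-mesenchymal cells with median-ratio scaling (−0.0221), Pcsk1 there with pan-islet scaling (0.0504), and the interactions of Slc30a8 at a pseudocount of 0.1 (−0.49) and of Chgb at 5 (0.17). With libraries left out, the sign turned for Kcnj11 (−0.25 to 0.30) and Slc2a2 (−0.35 to 0.0423) in the Igf2 model, for Pcsk2 in mesenchymal cells (−0.21 to 0.0657), for Slc2a2 (−0.0895 to 0.15), Abcc8 (−0.0602 to 0.35), Kcnj11 (−0.43 to 0.0561), Pcsk1 (−0.16 to 0.10) and Chga (−0.18 to 0.0212) in H19DMD non-mesenchymal cells, and for the interactions of Pcsk1 (−0.11 to 0.19), Chgb (−0.33 to 0.27), Slc30a8 (−0.15 to 0.36) and Kcnj11 (−0.0561 to 0.43). Deviations of same-numbered libraries had r from −0.05 to 0.07 over 16 pairs. Between fractions every r was above 0, from 0.007 to 0.07, and between mutants and controls they lay on both sides of 0. Values this small over so few libraries cannot decide whether the numbers pair them. With the replicate block the median difference was 0.18 in the Igf2 model and −0.12 in H19DMD non-mesenchymal cells, and no call changed. Depth is unknown, and a value listed at 0 can be a failed estimate.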
